A study of Mus musculus with 2 samples.

Results

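The histone cluster genes, most of them replication-linked histone genes of the mouse, are taken here as every gene whose symbol begins with Hist1h, Hist2h, Hist3h or Hist4h. The rule used names only and found 67 of the 32285 genes in the count matrices. They are 6 genes of the linker histone H1, 18 genes of H2A, 18 of H2B, 12 of H3 and 13 of H4. In the annotation of GRCm38 (the build also called mm10), 54 of them lie on chromosome 13 (Hist1), 10 on chromosome 3 (Hist2), 2 on chromosome 11 (Hist3) and 1 on chromosome 6 (Hist4).

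GL261 is a cell line from a mouse (C57BL/6) glioma, which the labels class as astrocytoma. Adherent cells grew in DMEM with fetal bovine serum, and neurosphere cells, free-floating aggregates, were taken after 12 days in the same medium with Epidermal Growth Factor and Fibroblast Growth Factor, each at 20 ng/ml, and B-27 supplement. Adherent cells were detached with trypsin, whereas neurospheres were spun down, put in trypsin according to the labels, and broken up by trituration, so the way of preparation and the culture cannot be told apart. Both were frozen in medium with DMSO and sequenced as 1 single-cell library each. With 1 library per culture no difference has a replicate check, no test was run, and every interval below is an exact 95% interval for counting error only.

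Core histones H2A, H2B, H3 and H4 form the particle around which DNA is wound, and H1 binds the DNA that enters and leaves it. Most cluster genes are transcribed in S phase, when new DNA has to be packed. Their mRNAs usually end in a short stem-loop, bound by the protein SLBP, in place of a poly(A) tail. Some cluster genes also give mRNAs that run on past the stem-loop to a poly(A) tail, a form known from resting and differentiating cells. The 3' protocol used here primes from poly(A), so the counts follow tailed or internally primed histone mRNA, and how much stem-loop mRNA the cells held was not measured.

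The stem-loop was looked for in the annotated transcripts (GENCODE M21, GRCm38) after the stop codon, as 16 bases that begin with GG and hold TTT in the loop, with the first 6 bases complementary to the last 6. It was found in 44 of the 67 genes, in 6 forms, between 21 and 58 bases after the stop codon. The genes below are shown because the results turn on them, with the stem-loop in capitals and up to 5 bases on each side.
Hist1h1e: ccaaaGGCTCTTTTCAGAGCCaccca
Hist1h1c: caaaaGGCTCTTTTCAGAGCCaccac
Hist1h2ap: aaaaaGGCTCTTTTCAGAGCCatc
Hist1h2ae: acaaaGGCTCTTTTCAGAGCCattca
Hist3h2ba: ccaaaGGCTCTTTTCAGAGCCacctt
Hist1h3c: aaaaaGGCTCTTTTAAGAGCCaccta
Hist1h4d: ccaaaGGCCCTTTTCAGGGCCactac
Hist1h4n: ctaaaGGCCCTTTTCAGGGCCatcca
The commonest form, seen in Hist1h1e, was in 26 genes of H1, H2A, H2B and H3 and in no H4 gene. All 11 H4 genes with a stem-loop had a form of their own type, of which that of Hist1h4d was in 7.

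Where a gene has several annotated coding transcripts, one with a stem-loop was taken before any without. Among several with a stem-loop, the one that runs furthest past it was taken. The transcript taken ended within 74 bases of the stem-loop in 22 genes, called stem-loop ends below. It ran on for at least 151 bases in another 22 genes. No stem-loop was found in 23 genes: in 18 of them the annotation stops less than 100 bases after the stop codon, and in 5 it goes on for longer. The limit of 100 bases was set after these lengths were seen. Hist1h2ap is a stem-loop end whose annotation stops 3 bases past the loop, while Hist1h1c runs on for 840 bases and Hist1h1e for 1153 bases.

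After the mitochondrial and ribosomal protein genes and cells with few UMIs or genes were removed, 5051 of 5764 adherent and 4276 of 4951 neurosphere cells were kept, with 46290996 and 64943938 UMIs. The median kept cell had 8260 UMIs in the adherent and 13198.5 in the neurosphere library, so levels are given as CPM, a gene's UMIs per 1000000 UMIs of the kept cells. The libraries had 12 cell barcodes in common. Of the astrocytoma and progenitor markers, Vim, Sox2, Nes, S100b and Slc1a3 were present in both libraries, Gfap was at 0.648 and 0.416 CPM and Aqp4 at 0 UMIs. The immune marker Ptprc was at 1 and 0 UMIs, and the 6 immune markers summed to 10.65 and 4.59 CPM, nearly all from Cd68. The 5 fibroblast markers summed to 9.16 and 392 CPM, 3 of 4 with enough UMIs over 2-fold higher in neurosphere cells, with Dcn on 1 UMI and Lum on 0 UMIs in adherent cells. Col1a1 was at 2.51 and 329 CPM, while Pdgfra was at 6.61 and 4.87 CPM. The 8 astrocytoma and progenitor markers summed to 6431 and 2485 CPM, mostly Vim. Of these, Vim and Slc1a3 were over 2-fold lower in neurosphere cells, and Sox2 and Gfap were lower within 2-fold. Nes, S100b and Aldh1l1 were higher within 2-fold. The part of these marker differences in the values below was not tested.

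Histone cluster UMIs were lower in neurosphere cells. The 67 genes summed to 40728 UMIs in adherent cells, 879.8 CPM (871.3 to 888.4), and to 18695 UMIs in neurosphere cells, 287.9 CPM (283.8 to 292.0). The log2 fold change, neurosphere over adherent, was -1.61 (-1.64 to -1.59), 3.06-fold lower. UMIs were found for 61 genes in the adherent and 58 genes in the neurosphere library, and 5 genes had none in either. In summed UMIs, fewer cells with histone mRNA and less of it per cell cannot be told apart.

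By size alone, 39 of the 52 genes with at least 50 UMIs were over 2-fold lower in neurosphere cells, none was over 2-fold higher, and 13 lay in between. Among all 14654 genes with at least 50 UMIs, 11.7% were over 2-fold lower and 21.7% over 2-fold higher. Among the 3992 of those genes shorter than 10 kb, as nearly all histone genes are, the shares were 15.6% and 21.7%. The median log2 fold change was -2.02 over the 52 histone genes and 0.32 over all genes. A change of scaling shifts every gene alike. Under edgeR's TMM factors the median was 0.11 over all genes and -2.23 over histone genes, and 16.1% of all genes were over 2-fold higher and 14.5% lower. With the removed gene classes left in the totals, the medians were 0.54 and -1.80 and the shares 29.5% and 9.38%. With totals of genes under 10 kb alone, they were 0.59 and -1.75, and 31.4% and 8.97%. The summed histone value lay at -1.94 relative to the median of all genes under each of these scalings. The 3 testis histones of the clusters, Hist1h1t, Hist1h2aa and Hist1h2ba, had 1 UMI between them. Of the 15 genes under 50 UMIs, 5 had no UMI, 5 had UMIs in 1 library only, and the log2 fold changes of the other 5 lay between -3.49 and 1.03. Hist1h4f (50 and 13 UMIs) and Hist2h3c1 (17 and 36 UMIs) passed the minimum of 50 but not that of 100 used below for naming.

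**Figure D1:**
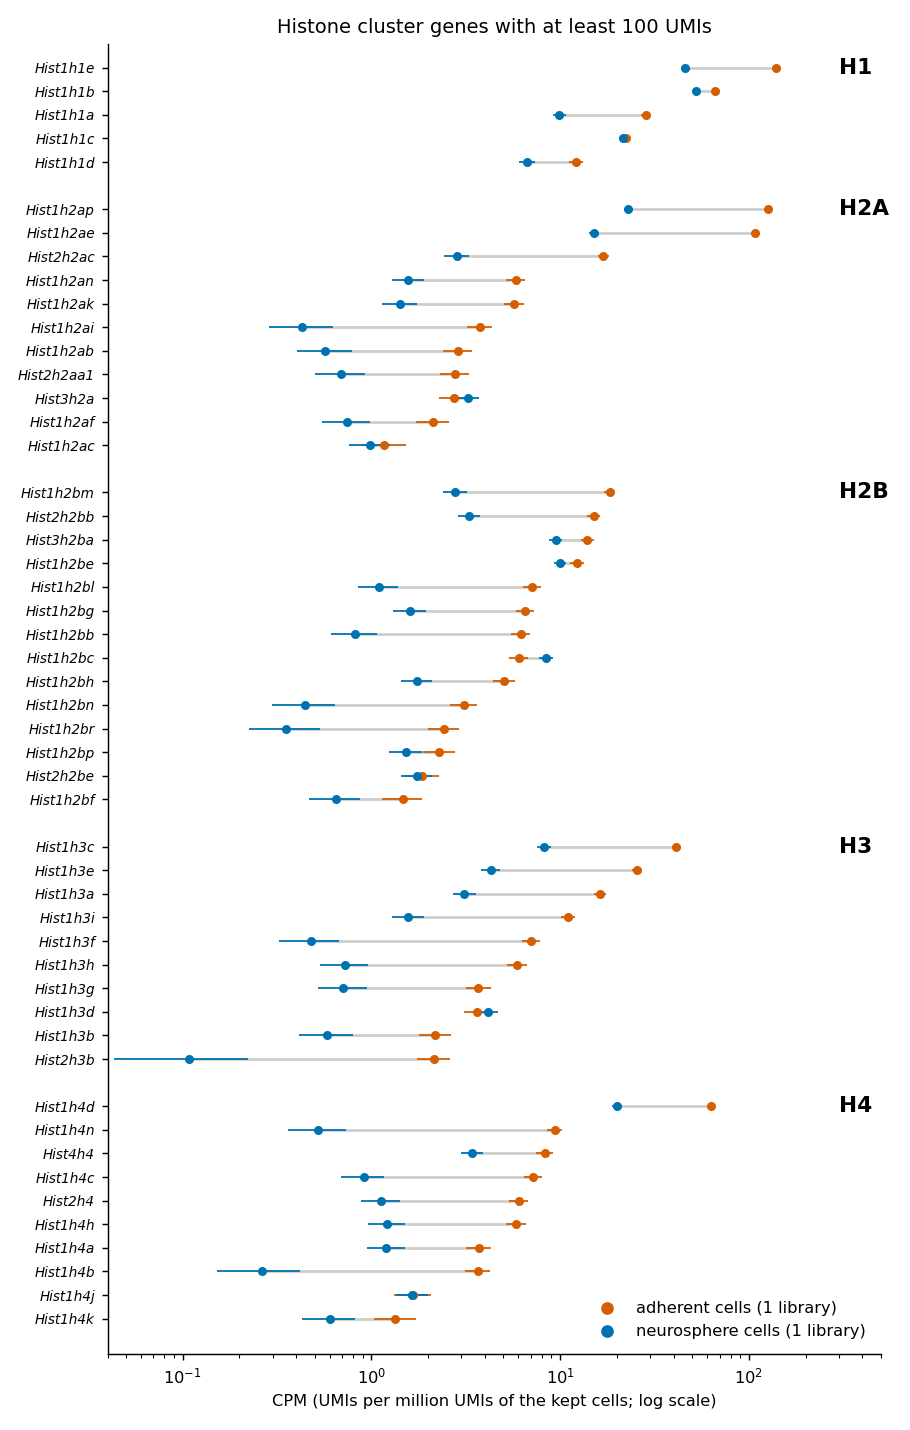
Level of each of the 50 histone cluster genes with at least 100 UMIs, in CPM on a log axis, grouped by histone type. Points are the adherent (orange) and neurosphere (blue) library, bars are exact 95% Poisson intervals for counting error, and 47 of the 50 blue points lie to the left of their orange point.

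**Figure D2:**
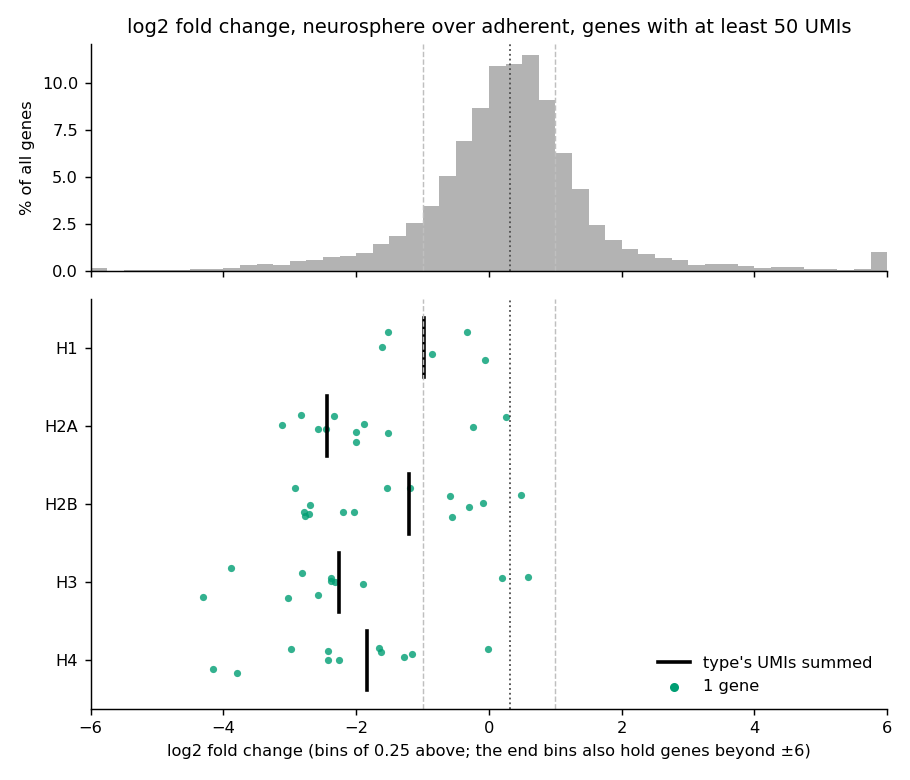
Top, the log2 fold changes of all 14654 genes with at least 50 UMIs as a percentage per bin of 0.25. Bottom, those of the 52 histone cluster genes by type, with the value of the type's summed UMIs as a black bar; dashed lines mark 2-fold, the dotted line is the median of all genes at 0.32, and most histone genes lie to the left of -1.

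In summed UMIs, the linker histones had the smallest difference of the 5 types, although with each cell weighted the same H2B had a smaller one (-0.94, against -1.03 for H1). H1 genes summed to 268.9 CPM in adherent cells against 136.8 CPM in neurosphere cells (log2 fold change -0.97, -1.01 to -0.94), and their share of all histone cluster UMIs was 30.6% in adherent and 47.5% in neurosphere cells. Hist1h1e (chromosome 13, 23620629 to 23622558, minus strand) had the most UMIs of any histone gene in adherent cells. It was at 139.8 CPM in the adherent library against 45.9 CPM in the neurosphere library, which gives a log2 fold change of -1.61 (-1.67 to -1.54). Hist1h1b (chromosome 13, 21779883 to 21780625, minus strand) was at 66.1 and 52.7 CPM, a log2 fold change of -0.33 (-0.40 to -0.26), and had the most UMIs in neurosphere cells. Hist1h1c (chromosome 13, 23738808 to 23740367, plus strand) was at 22.5 and 21.6 CPM, with an interval of the log2 fold change that held 0 (-0.06, -0.17 to 0.06). Hist1h1a was at 28.4 and 9.90 CPM and Hist1h1d at 12.1 and 6.68 CPM. Within H1, Hist1h1e took 52.0% of the UMIs in adherent and 33.6% in neurosphere cells, Hist1h1b 24.6% and 38.5%, and Hist1h1c 8.35% and 15.8%, and these shares do not depend on the scaling. Linker histone subtypes are known to differ in when they are made, and Hist1h1c is known as one that is also made outside S phase.

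H2A had the largest difference of the 5 types in summed UMIs, most of which came from 2 genes. By the median over genes with at least 50 UMIs, H3 (-2.38) and H4 (-2.27) stood lower than H2A (-2.01). The 18 H2A genes summed to 278.7 CPM in the adherent library against 51.1 CPM in the neurosphere library, a log2 fold change of -2.45 (-2.50 to -2.39), 5.45-fold lower. Hist1h2ap (chromosome 13, 21833026 to 21833507, minus strand) and Hist1h2ae (23570517 to 23571220, minus strand) held most H2A UMIs in both libraries. Hist1h2ap was at 125.9 and 23.0 CPM (log2 fold change -2.45, -2.53 to -2.37) and Hist1h2ae at 107.4 and 15.1 CPM (-2.83, -2.93 to -2.73). Both have the common stem-loop shown above, in Hist1h2ap at the annotated end and in Hist1h2ae 151 bases before it. Hist2h2ac was at 17.0 and 2.83 CPM, Hist1h2an at 5.81 and 1.57 CPM and Hist1h2ak at 5.70 and 1.42 CPM. The rarer Hist1h2ai, Hist1h2ab, Hist2h2aa1 and Hist1h2af lay between 2.12 and 3.76 CPM in adherent cells and between 0.431 and 0.739 CPM in neurosphere cells. Within 2-fold were Hist3h2a, at 2.74 and 3.26 CPM, and Hist1h2ac, at 1.17 and 0.985 CPM. The annotated transcripts of both run on past the stem-loop, and the intervals of both log2 fold changes held 0 (0.25, -0.07 to 0.58, and -0.24, -0.79 to 0.31).

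H2B genes differed among themselves in direction. Summed, they were at 101.8 CPM in adherent cells against 44.0 CPM in neurosphere cells (log2 fold change -1.21, -1.28 to -1.14), with 9 of the 14 genes with at least 50 UMIs over 2-fold lower. Hist1h2bm had the most H2B UMIs in adherent cells, at 18.3 CPM against 2.79 CPM in neurosphere cells, with a log2 fold change of -2.71 (-2.95 to -2.48). Hist1h2be had the most in neurosphere cells, at 10.01 CPM against 12.3 CPM in adherent cells (-0.30, -0.46 to -0.13). Hist1h2bc was the 1 named histone gene with an interval above 0: it was at 6.03 CPM in adherent cells against 8.44 CPM in neurosphere cells (0.49, 0.27 to 0.70). Its annotated transcript has 2 exons and no stem-loop. Hist3h2ba was at 14.0 and 9.47 CPM, Hist1h2bp at 2.29 and 1.52 CPM and Hist2h2be at 1.86 and 1.74 CPM, all within 2-fold. Of the genes that were lower, Hist2h2bb was at 15.1 and 3.3 CPM, Hist1h2bl at 7.11 and 1.09 CPM, Hist1h2bg at 6.52 and 1.60 CPM, Hist1h2bb at 6.20 and 0.816 CPM and Hist1h2bh at 5.05 and 1.74 CPM. Hist1h2bn, Hist1h2br and Hist1h2bf were at 1.47 to 3.09 CPM in adherent and 0.354 to 0.647 CPM in neurosphere cells. The rank order within H2B thus differed between the cultures: Hist1h2be, Hist3h2ba and Hist1h2bc took 22.8%, 21.5% and 19.2% of H2B UMIs in neurosphere cells, and 12.1%, 13.7% and 5.92% in adherent cells.

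H3 genes summed to 119.1 CPM in the adherent library against 24.9 CPM in the neurosphere library, a log2 fold change of -2.26 (-2.34 to -2.18). Hist1h3c led in both libraries, at 41.2 and 8.25 CPM (-2.32, -2.46 to -2.18), followed in adherent cells by Hist1h3e, at 25.6 and 4.28 CPM (-2.58, -2.77 to -2.39). Hist1h3d, whose annotated transcript runs on for 752 bases past the stem-loop, was the exception among the named H3 genes, at 3.63 CPM in adherent cells against 4.17 CPM in neurosphere cells (0.20, -0.08 to 0.49). It took 3.05% of H3 UMIs in adherent and 16.8% in neurosphere cells. Hist1h3a was at 16.2 and 3.11 CPM, Hist1h3i at 11.04 and 1.57 CPM, Hist1h3h at 5.90 and 0.724 CPM, Hist1h3g at 3.69 and 0.708 CPM and Hist1h3b at 2.18 and 0.585 CPM. The largest differences were those of Hist1h3f, from 7.04 to 0.477 CPM (-3.88, -4.46 to -3.35), and Hist2h3b, from 2.14 to 0.108 CPM, which rests on 7 UMIs in neurosphere cells (-4.31, -5.66 to -3.21). Transcripts that run on were not limited to genes within 2-fold, since that of Hist1h3f goes on for 365 bases past the stem-loop.

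H4 genes summed to 111.3 CPM in the adherent library against 31.1 CPM in the neurosphere library, a log2 fold change of -1.84 (-1.91 to -1.77). Hist1h4d (chromosome 13, 23581598 to 23582735, plus strand) held 56.7% of H4 UMIs in adherent and 64.3% in neurosphere cells. It was at 63.1 and 20.0 CPM (-1.66, -1.75 to -1.56). Hist1h4n, with the same stem-loop, was at 9.35 and 0.524 CPM (-4.16, -4.71 to -3.65), and Hist1h4b at 3.65 and 0.262 CPM (-3.80, -4.62 to -3.08). Hist1h4j, at 1.66 and 1.65 CPM, was the H4 gene with the smallest difference (-0.01, -0.45 to 0.43). The other named genes lay between: Hist4h4 at 8.30 and 3.42 CPM, Hist1h4c at 7.17 and 0.908 CPM, Hist2h4 at 6.03 and 1.12 CPM, Hist1h4h at 5.85 and 1.22 CPM, Hist1h4a at 3.72 and 1.2 CPM and Hist1h4k at 1.34 and 0.601 CPM.

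Read against the annotated 3' ends, the genes within 2-fold were mostly genes with long ends. Of the stem-loop ends, 14 of 15 genes with at least 50 UMIs were over 2-fold lower. The sum of the stem-loop ends was at 257.6 CPM in adherent cells against 47.4 CPM in neurosphere cells (log2 fold change -2.44, -2.50 to -2.39). The exception was Hist1h2bp, which has 2 annotated transcripts. Its gene spans 21787461 to 21789213, well beyond the 469-base transcript it was classed by. Of the genes that run on, 10 of 19 were over 2-fold lower and 9 were within 2-fold, and their sum was at 446.6 and 153.3 CPM (-1.54, -1.58 to -1.51). The genes with a long end and no stem-loop summed to 14.0 and 11.7 CPM (-0.26, -0.41 to -0.10), with 2 of 4 over 2-fold lower. In the genes whose annotation stops early, 13 of 14 were over 2-fold lower and their median was -2.29, while their sum was at -1.10 (-1.15 to -1.05) because Hist1h1b holds most of its neurosphere UMIs. Sequence shared with other histone genes also differed between these genes. The 26 genes with at least 50% of their 90-base windows found in another member summed to a log2 fold change of -2.49 (17 of 17 with enough UMIs over 2-fold lower), and the 17 genes with under 10% summed to -0.93 (7 of 14). The rule by which reads that match several genes were counted is not given in the sources used here. Levels of single genes with near-identical copies, such as Hist1h2ap with 92.4% of its windows shared, are therefore uncertain. So are those of the 7 histone genes that overlap another gene on the same strand. Hist1h2be and Hist1h1e overlap each other, Hist3h2a overlaps Trim17 and Hist1h2ac overlaps Gm24991.

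Many H2A and H2B genes stand head to head and share the DNA between their starts. The annotation holds 13 pairs of histone genes that start back to back in this way (1 of them an H2B and an H3 gene), and in 5 of them at least 1 gene had under 50 UMIs. In the others, the members of a pair lay close together or apart. Hist2h2ac (chromosome 3, 96220361 to 96220880, minus strand) was at a log2 fold change of -2.58 and Hist2h2be, which starts 238 bases away on the plus strand, at -0.09. Hist1h2ac and Hist1h2bc, 250 bases apart, were at -0.24 and 0.49, and Hist1h2ae and Hist1h2bg, 175 bases apart, at -2.83 and -2.03. The promoter that Hist2h2ac and Hist2h2be share is shown here from the RefSeq table (GRCm38.p6, chr3:96220831-96221130, minus strand), with the letters TATAAA (known as the TATA box), CCAAT (the CCAAT box) and ATTTGCAT (the octamer) in capitals on either strand. None of the matches overlap.
Hist2h2ac: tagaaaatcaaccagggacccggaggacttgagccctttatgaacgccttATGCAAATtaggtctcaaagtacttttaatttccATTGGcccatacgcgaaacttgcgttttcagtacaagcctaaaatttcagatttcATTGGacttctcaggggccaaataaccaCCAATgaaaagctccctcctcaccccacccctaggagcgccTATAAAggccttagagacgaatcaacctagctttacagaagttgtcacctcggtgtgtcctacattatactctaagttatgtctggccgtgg
Promoters of this length, from 250 bases before the start to 50 after, were matched for 61 of the 67 genes. CCAAT was in 52 of them (37.9% of all 27025 promoters): all 5 H1, 18 H2A, 16 H2B and 10 H3 promoters, and 3 of 12 H4 promoters. TATAAA was in 34 (14.2% of all), and ATTTGCAT, the octamer of H2B promoters, in 7 H2A and 6 H2B promoters and in no other (1.75% of all). AAACACA, known from H1 promoters, was in 4 of the 5 H1 promoters and in 4 others (7.14% of all).

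Fewer neurosphere cells held a histone UMI, and those in the upper range held fewer. To compare shares at one depth, each kept cell was thinned to 5000 UMIs, which left out 587 adherent and 80 neurosphere cells. A histone cluster UMI was then found in 86.9% of 4464 adherent cells (85.9% to 87.9%) and in 60.3% of 4196 neurosphere cells (58.8% to 61.8%). Without thinning, the shares were 91.4% and 81.8%. By type, H1 UMIs were found in 59.9% and 36.8% of the thinned cells, H2A in 52.7% and 17.6%, H2B in 33.9% and 19.2%, H3 in 38.9% and 9.68%, and H4 in 38.8% and 12.9%. The mean thinned cell held 4.23 histone UMIs in the adherent and 1.38 in the neurosphere library. Cells with 10 or more made up 11.2% and 0.429%, although the highest cell of each library had 25. The tenth of cells with the most histone UMIs held 31.0% of them in adherent and 39.5% in neurosphere cells. Both libraries come from 1 cell line, and there was no cell type without histone mRNA in which background UMIs from free RNA could be read.

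**Figure D3:**
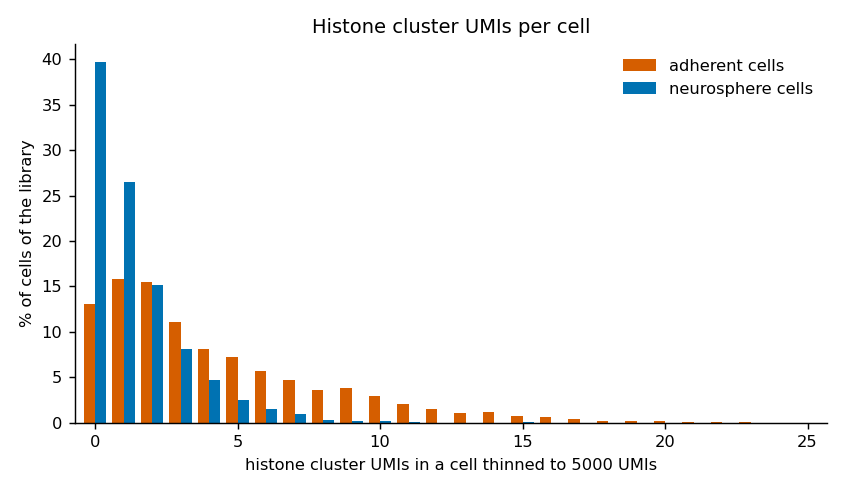
Share of the cells of each library (y axis, %) by the number of histone cluster UMIs in a cell thinned to 5000 UMIs (x axis), adherent cells in orange and neurosphere cells in blue. Cells without a histone UMI make up 13.1% of adherent and 39.7% of neurosphere cells.

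Because most of the genes are linked to S phase, their UMIs were set against the UMIs of 43 S phase genes and 54 G2/M genes in each thinned cell. Cells were put in a low, middle or high band of each score with cuts from both libraries together, at 9 and 16 UMIs for S phase and at 23 and 55 UMIs for G2/M. The bands are ranges, not cell types, and 2292 of 8660 cells lay within 1 UMI of a cut of the S phase score, against 520 for G2/M. The libraries differed in their scores, with a median S phase score of 12 in adherent and 13 in neurosphere cells and a median G2/M score of 41 and 32. Across cells, histone UMIs had a Pearson r with the S phase score of 0.35 in adherent (n = 4464 cells) and 0.21 in neurosphere cells (n = 4196 cells). With the G2/M score, r was 0.25 and 0.23 over the same cells. All cells of a library share its preparation.

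Summed over all 67 genes, histone UMIs per cell were higher in the higher bands of each score taken alone, and lower in neurosphere cells in every band. From the low to the high band of the S phase score, the mean was 2.72, 4.37 and 6.26 UMIs in adherent cells and 0.968, 1.31 and 1.81 UMIs in neurosphere cells. The log2 fold change between the libraries was -1.49, -1.74 and -1.79. By the G2/M score it was -0.93 in the low, -1.82 in the middle and -1.39 in the high band. With cells grouped by both scores at once, it lay below 0 in all 9 groups, between -0.74 in cells low in both scores and -2.17 in cells low in S phase and in the middle G2/M band. Cells low in both scores were 15.2% of adherent and 32.3% of neurosphere cells, with 1.63 and 0.977 histone UMIs per cell. Within the low G2/M band, the neurosphere mean went down with the S phase score, at 0.977, 0.849 and 0.645 UMIs per cell, and the adherent mean went up, at 1.63, 1.74 and 2.44. Within the low S phase band, the neurosphere mean was 0.977 in the low, 0.617 in the middle and 1.22 in the high G2/M band. In the cells low in both scores, H2B was higher in the neurosphere library, at 0.232 UMIs per adherent and 0.362 per neurosphere cell (log2 fold change 0.64, 0.38 to 0.91). It was also higher there in the low G2/M band as a whole (0.34, 0.13 to 0.55), and at -1.52 and -1.54 in the middle and high one. In the low S phase band as a whole, H2B was lower in neurosphere cells (-0.23, -0.40 to -0.06).

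**Figure D4:**
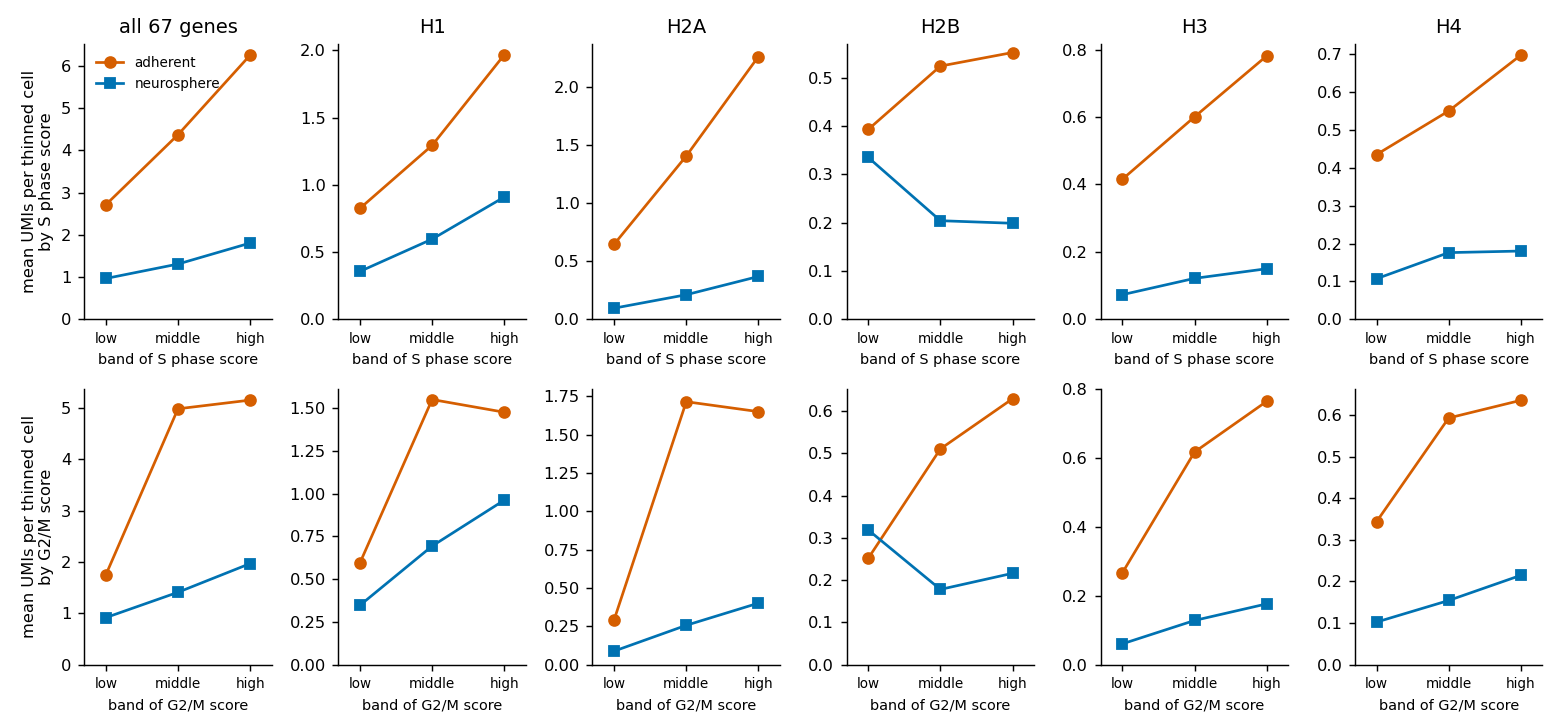
Mean histone cluster UMIs per thinned cell (y axes, each from 0 and with its own scale) in the low, middle and high band of the S phase score (top row) and the G2/M score (bottom row), for all 67 genes and each type, adherent in orange and neurosphere in blue. H2B in neurosphere cells goes down from 0.335 to 0.199 UMIs from the low to the high S phase band, while the other types go up.

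Types and genes differed in how they went with the S phase score. H2A had 3.50 times as many UMIs per cell in the high as in the low band in adherent and 3.84 times in neurosphere cells. H1 had 2.38 and 2.55 times, H3 1.88 and 2.05 times and H4 1.60 and 1.68 times. For H2B the ratio was 1.40 in adherent and 0.594 in neurosphere cells. Of the 36 genes with at least 20 thinned UMIs in each library, 32 were higher in the high than in the low band in adherent cells and 24 in neurosphere cells. Of 12261 genes with the same minimum, the shares higher in the high band were 55.1% in adherent and 39.2% in neurosphere cells.

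In neurosphere cells low in the S phase score, the leading histone genes were mostly others than in adherent cells. Hist1h1c took 22.2% of the histone UMIs of these 1613 cells, Hist3h2ba and Hist1h2bc 10.8% each, Hist1h1e 9.29% and Hist1h2be 8.33%. In the 1586 adherent cells of the same band, Hist1h1e led with 17.7%, followed by Hist1h2ap with 9.54% and Hist1h2ae with 9.06%. The 2 sets of cells differed in G2/M score. Of the 1586 adherent and 1613 neurosphere cells, 677 and 1357 were also low in G2/M. Single genes were not read in those cells alone. Hist1h1c was at 0.0813 UMIs per adherent and 0.215 per neurosphere cell of the low band (log2 fold change 1.40, 1.11 to 1.71), and at 0.119 and 0.0747 in the high band (-0.67, -1.04 to -0.30). Hist1h2bc had a log2 fold change of 1.32 (0.90 to 1.76) in the low band and -0.32 (-1.03 to 0.39) in the high band. Hist1h2be was at 0.87 (0.44 to 1.31) and -1.02 (-1.50 to -0.54), and Hist3h2ba at 0.57 (0.22 to 0.93) and -0.59 (-1.13 to -0.04). These 4 genes were thus higher in neurosphere cells where the S phase score was low and lower where it was high, with the interval of Hist1h2bc in the high band holding 0. The high band differed in G2/M score too, since cells high in both scores were 5.13% of adherent and 18.1% of neurosphere cells. The part of the G2/M score in the turn was not tested. They are 4 of the 6 genes whose interval in the low band lay above 0, and were chosen after their values were seen. The other 2 did not turn between the low and the high band. Hist3h2a was at 1.34 (0.69 to 2.02) in the low and 1.24 (-0.23 to 3.02) in the high band, there on 5 adherent and 19 neurosphere UMIs. Hist1h3d was at 0.94 (0.15 to 1.77) and 0.16 (-0.59 to 0.94). In the middle band, Hist1h4j was the only histone gene with at least 20 UMIs that was over 2-fold higher. In the low band, 30 of 42 histone genes with at least 20 UMIs were still over 2-fold lower in the neurosphere library and 3 over 2-fold higher: Hist1h1c, Hist1h2bc and Hist3h2a. Of all 13015 genes with the same minimum in these cells, 12% were over 2-fold lower and 28.3% higher. In the low G2/M band, 20 of 30 histone genes were over 2-fold lower and 6 over 2-fold higher, which were Hist1h1c, Hist1h2bc, Hist1h2be, Hist1h3d, Hist1h4j and Hist3h2a, beside 11.3% lower and 26.2% higher of 12913 genes.

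Hist1h2ap and Hist1h1b had far fewer UMIs per neurosphere cell in the low than in the high band of the S phase score. They are given as examples, and no cut-off was set for such genes. Hist1h2ap in neurosphere cells was at 0.00992 UMIs per cell in the low band, on 16 UMIs, and at 0.184 in the high band, 18.5 times as high, against 0.259 and 1.05 in adherent cells, 4.07 times as high. Hist1h1b was at 0.0254 and 0.398 in neurosphere cells, 15.7 times as high, and at 0.139 and 0.604 in adherent cells, 4.34 times as high. In the high band, Hist1h1b had the most histone UMIs of neurosphere cells (22%) and Hist1h2ap those of adherent cells (16.8%). Hist1h1b also had a log2 fold change of 0.27 in the high G2/M band, and was at -0.64 in the middle and -2.0 in the low one.

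**Figure D5:**
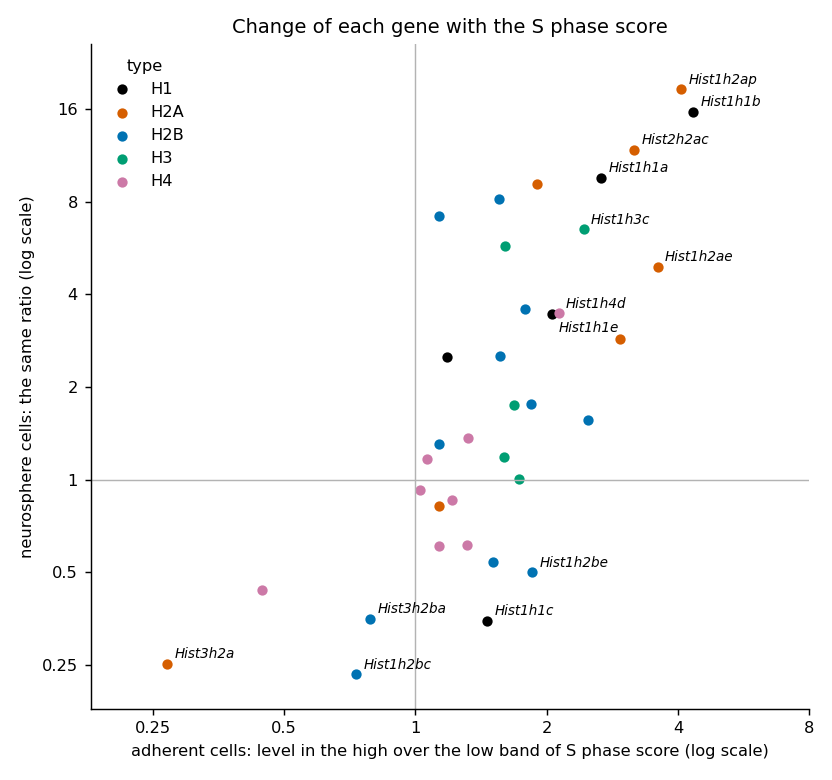
UMIs per cell in the high over the low band of the S phase score for each of 36 histone cluster genes, in adherent cells (x axis) and neurosphere cells (y axis), both on log axes, coloured by type. Genes under the horizontal line, such as Hist1h1c at 1.46 in adherent and 0.347 in neurosphere cells, were lower in the high band of neurosphere cells, and Hist1h2ap and Hist1h1b lie at the top right.

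Other genes of the histone system had medians near that of all genes. The counts for these lists stand beside 21.7% of all genes over 2-fold higher, 11.7% over 2-fold lower and a median of 0.32. Histone variant genes outside the clusters had a median log2 fold change of 0.19, with 1 of 10 over 2-fold higher and 1 over 2-fold lower. H2afz was at 3466 CPM in adherent cells against 3222 CPM in neurosphere cells (-0.11), H3f3b at 2105 and 2388 CPM (0.18), H1fx at 16.5 and 44.4 CPM (1.43) and H2afj at 839 and 258 CPM (-1.70). H2afj encodes an H2A variant and H1fx a linker histone. In the list of histone mRNA production, 2 of 16 genes were over 2-fold higher and 1 lower, both smaller shares than over all genes, with a median of 0.43. Slbp, which encodes the stem-loop binding protein, was at 76.3 CPM in adherent cells against 229 CPM in neurosphere cells (1.59, 1.53 to 1.64). Lsm11, a part of the U7 particle that cuts histone pre-mRNA, was at 35.3 and 16 CPM (-1.14), and Lsm1, which acts in the decay of mRNA, at 184 and 221 CPM (0.27). Of 20 histone chaperones, 1 was over 2-fold lower and none higher (median 0.38). This was Ipo4, an importin that carries histones, at 31.2 and 14.3 CPM (-1.13). Nap1l1 was at 832 and 671 CPM (-0.31), Rbbp7 at 326 and 428 CPM (0.39) and Asf1b at 28.3 and 54.1 CPM (0.93).

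Of 40 DNA replication genes, 6 were over 2-fold higher in the neurosphere library and none lower, with a median of 0.41, a smaller share of higher genes than the 21.7% of all genes. Mcm2, a subunit of the replicative helicase, was at 22.6 and 86.2 CPM (1.93), Pcna at 189 and 216 CPM (0.20), Dut at 506 and 466 CPM (-0.12) and Tk1 at 55.3 and 38.0 CPM (-0.54). The 43 S phase genes had a median of 0.52 and 8 were over 2-fold higher, again a smaller share than over all genes, with E2f8 highest (2.05) and Pold3 lowest (-0.39). Nasp, which encodes a histone chaperone, had the most UMIs of that list, at 230 and 296 CPM (0.37). The 54 G2/M genes had a median of -0.0023, with 1 over 2-fold higher and 3 lower, from 1.21 for Lbr to -2.01 for Psrc1. Hmgb2 and Ube2c, with the most UMIs of that list, were at 0.86 and -0.56. Slbp is in the S phase list too, and some replication genes are in both lists. Beside these 6 lists, with medians from -0.0023 to 0.52, the median of the histone cluster genes was -2.02.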

How the data were processed

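For each library the authors deposited the raw UMI counts per gene and cell that Cell Ranger 7.0.1 wrote for its called cells, aligned to mm10 per the submitters' processing notes. The annotation, the use of intron reads and the rule for reads matching several genes are not given in the sources used here. UMIs follow molecules, so levels were not divided by length.

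From these deposited counts, 13 genes of the mitochondrial genome and 101 of ribosomal proteins were taken out, then cells with fewer than 1000 UMIs or fewer than 1250 (adherent) or 2250 (neurosphere) genes, the study's limits. This left 5051 and 4276 cells. With the limits applied before those genes were taken out, an alternative, 5073 and 4300 cells were left, which are the study's numbers of cells. UMIs were summed per library over the kept cells. Log2 fold changes have exact conditional, CPM exact Poisson and shares exact Clopper-Pearson 95% intervals. No doublets were called, and an alternative dropped the 5% of cells with the most UMIs. For a gene at 0 UMIs, the upper limit of this interval is 0.0797 CPM in the adherent and 0.0568 CPM in the neurosphere library. In simulated data for this comparison, with 200 of 14654 genes changed, the interval held the true value in 97.5% of those changed, and the sign was right in 100%. Both libraries were drawn as Poisson counts, which the interval itself assumes. The simulation thus checks the calculation and holds no spread between cells or between libraries.

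Positions and transcripts came from GENCODE M21 (GRCm38), in which all 67 genes were found, and promoters from RefSeq (GRCm38.p6), matched by position. Sequence shared between members was counted in windows of 90 bases. Histone cluster genes with at least 100 UMIs over the called cells of both libraries together were named. Of each other list, the 2 genes with the most UMIs and those with the highest and lowest fold change were named, beside marker genes at or near 0. The members, lists and limits were chosen with earlier results of these data known. Python 3.11.15, numpy 2.4.6, scipy 1.17.1, pandas 2.3.3, matplotlib 3.10.9 and, for TMM factors only, edgeR 4.0.16 in R 4.3.3 were used.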

Additional observations from a re-analysis of the deposited data

How the results depend on the processing

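No histone value changed direction in sum, as a median or by type under any alternative. The summed log2 fold change was -1.64 with the neurosphere gene minimum applied to both libraries, -1.83 with edgeR's TMM factors, -1.39 with mitochondrial and ribosomal genes counted in the totals and -1.35 with totals of genes under 10 kb. With TMM factors, H1 was at -1.19, H2A at -2.66, H2B at -1.43, H3 at -2.48 and H4 at -2.06. With mitochondrial and ribosomal genes counted they were at -0.76, -2.23, -0.99, -2.04 and -1.62, and with totals of genes under 10 kb at -0.71, -2.18, -0.95, -2.0 and -1.57. With each cell weighted the same, H1 was at -1.03, H2A at -2.52 and H2B at -0.94, which turns the order of H1 and H2B. The scalings shift all genes by one amount, as their construction sets, and the cause of the other moves was not tested. Cells with a histone UMI were 75.9% of adherent and 46.7% of neurosphere cells when thinned to 3000 UMIs per cell, and 91.4% and 81.8% without thinning. Of the histone genes, 28 of 37 were over 2-fold lower with at least 200 UMIs (9.47% of all genes, and 20.3% higher) and 42 of 56 with at least 20 UMIs (13.4%, and 22.7% higher), the fewest and the most of all settings. With at least 20 UMIs, 1 gene was over 2-fold higher, Hist2h3c2, on 7 and 20 UMIs. The sign of 5 of the 50 named genes, Hist2h2be, Hist1h4j, Hist1h3d, Hist1h2ac and Hist1h1c, changed in at least 1 of 10 settings, while the 38 named genes over 2-fold lower stayed below 0 in all 10. No paired analysis was possible because each culture has 1 library.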

Other observations

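The cells left out by the minimum of UMIs and genes also held histone UMIs. The 713 adherent cells left out had 614.8 histone cluster CPM and the 675 neurosphere cells 255.8, with a median mitochondrial share of 48.8% and 87.0%, against 2.02% and 3.97% in the kept cells. In both libraries 5 genes held most histone UMIs, 57.1% in adherent and 56.7% in neurosphere cells.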
